A study of Rattus norvegicus with 24 samples.

Results

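The enzymes of glutathione, thioredoxin and hydrogen peroxide metabolism were followed through the hypothalamus of rats under restraint, with and without inhaled linalool. The genes were chosen by symbol, with earlier results of these data known. Taken was every probe set with a single gene symbol for a glutathione transferase, glutathione peroxidase, peroxiredoxin, superoxide dismutase, thioredoxin or thioredoxin reductase. Those for quinone oxidoreductase or haem oxygenase, glutathione synthesis or reduction, catalase or sulfiredoxin were taken as well. This gave 57 probe sets of 51 genes, out of 31042 probe sets and 14217 named genes. The symbols of all 57 matched a current RefSeq gene by identifier, and 5 genes had more than 1 probe set.

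The 18 animals were male rats of the outbred Wistar strain, 7 weeks old, with 6 per group and the RNA of each hypothalamic block on 1 array. Linalool rats were held in restraint for 2 h in a 40 L box into which 20 µL of (R,S)-linalool, a monoterpene alcohol of lavender oil, evaporated. Stress rats were held in the same restraint without the odour, and control rats had neither. The authors normalized the stress arrays 2 times, once with the linalool arrays and once with the controls, so each comparison was made inside its own set of 12 arrays, and the stress rats are the same animals in both.

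Glutathione is a small thiol peptide that cells make from glutamate, cysteine and glycine and keep reduced at the expense of NADPH. Transferases attach it to electrophiles, glutathione peroxidases use it to reduce peroxides, and peroxiredoxins do the same with electrons from thioredoxin. In brain, glutathione metabolism is strongest in astrocytes, which export glutathione and so supply neurons with its precursors. The transcription factor NRF2, encoded by Nfe2l2, is known to induce many of these genes through the antioxidant response element when oxidants or electrophiles release it from KEAP1.

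Values are log2 signals as deposited, and for many probe sets they span far less than 0.01 of a log2 unit. A probe set with a residual SD (the spread within groups over the 12 arrays) under 0.01 is called compressed here, which held for 34 of the 57 in the linalool and stress set and for 36 in the stress and control set, against 83.7% and 83.5% of all probe sets. For the same 6 stress rats Prdx6 had an SD of 0.0255 in the first of these sets and 4.78e-05 in the second, while its 6 values correlated at 0.814 between the sets. A log2 difference of a compressed probe set is therefore not a fold change, and differences are also given in residual SDs, where the difference of 2 means of 6 rats has a standard error of 0.577. Adjusted p-values are from limma with Benjamini-Hochberg adjustment over all 31042 probe sets, at a threshold of 0.05.

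With linalool, 18 of the 57 probe sets rose, 3 fell and 36 did not pass. The shares were 31.6% higher and 5.26% lower, against 14.2% higher and 10.8% lower among all 31042 probe sets (25% called in all). Among the 20826 with 1 gene symbol, 28.2% were called. Glutathione transferases of the mu, alpha, kappa, zeta, theta and pi classes, the peroxidases Gpx4, Gpx7 and Gpx8, the peroxiredoxins Prdx4, Prdx5 and Prdx6, and Nqo1, Hmox2, Gsr and Sod2 held the rises. Cytosolic superoxide dismutase (Sod1), the omega-class transferase Gsto2 and a second probe set of Gpx4 held the falls. The 6 linalool rats lay above all 6 stress rats for 13 probe sets and below them for 2, against 7.56% and 4.36% of all probe sets (11.9% in either direction). The median difference over the 57 was 0.855 residual SDs and over all probe sets -0.0136.

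The background in this comparison is high, and probe sets that do not read rat RNA differed too. Of 45 array control probe sets for bacterial and phage sequences, 19 passed the same test adjusted over the 57 array controls, 15 higher and 4 lower, so a processing batch and the odour cannot be told apart. Members were also brighter than most probe sets: 43 of the 57 lay at or above the median level. In the fit over all probe sets 15 of these 43 were higher. With the test rerun on probe sets at that level alone, 17 of the 43 (39.5%) were higher, Gclm and Gss being added. Of all such probe sets 23.4% were higher in the rerun. There 2 members (4.65%) were lower, against 14.3%. Of the 23 members that were not compressed 12 were higher (52.2%), against 28.4%, and of the 34 compressed ones 6 were higher (17.6%), against 11.4%. Lower calls made up 21.3% of all probe sets that were not compressed and 8.79% of the compressed ones. After quantile normalization 11 members (19.3%) were higher, against 4.92% of all, and 2 (3.51%) were lower, against 3.48%. Every member call that the first fit made on a compressed probe set was lost there. Such probe sets were 34 of the 57 members but 83.7% of all, so these shares do not compare like with like. Shares split by compression were not computed after quantile normalization.

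**Figure D1:**
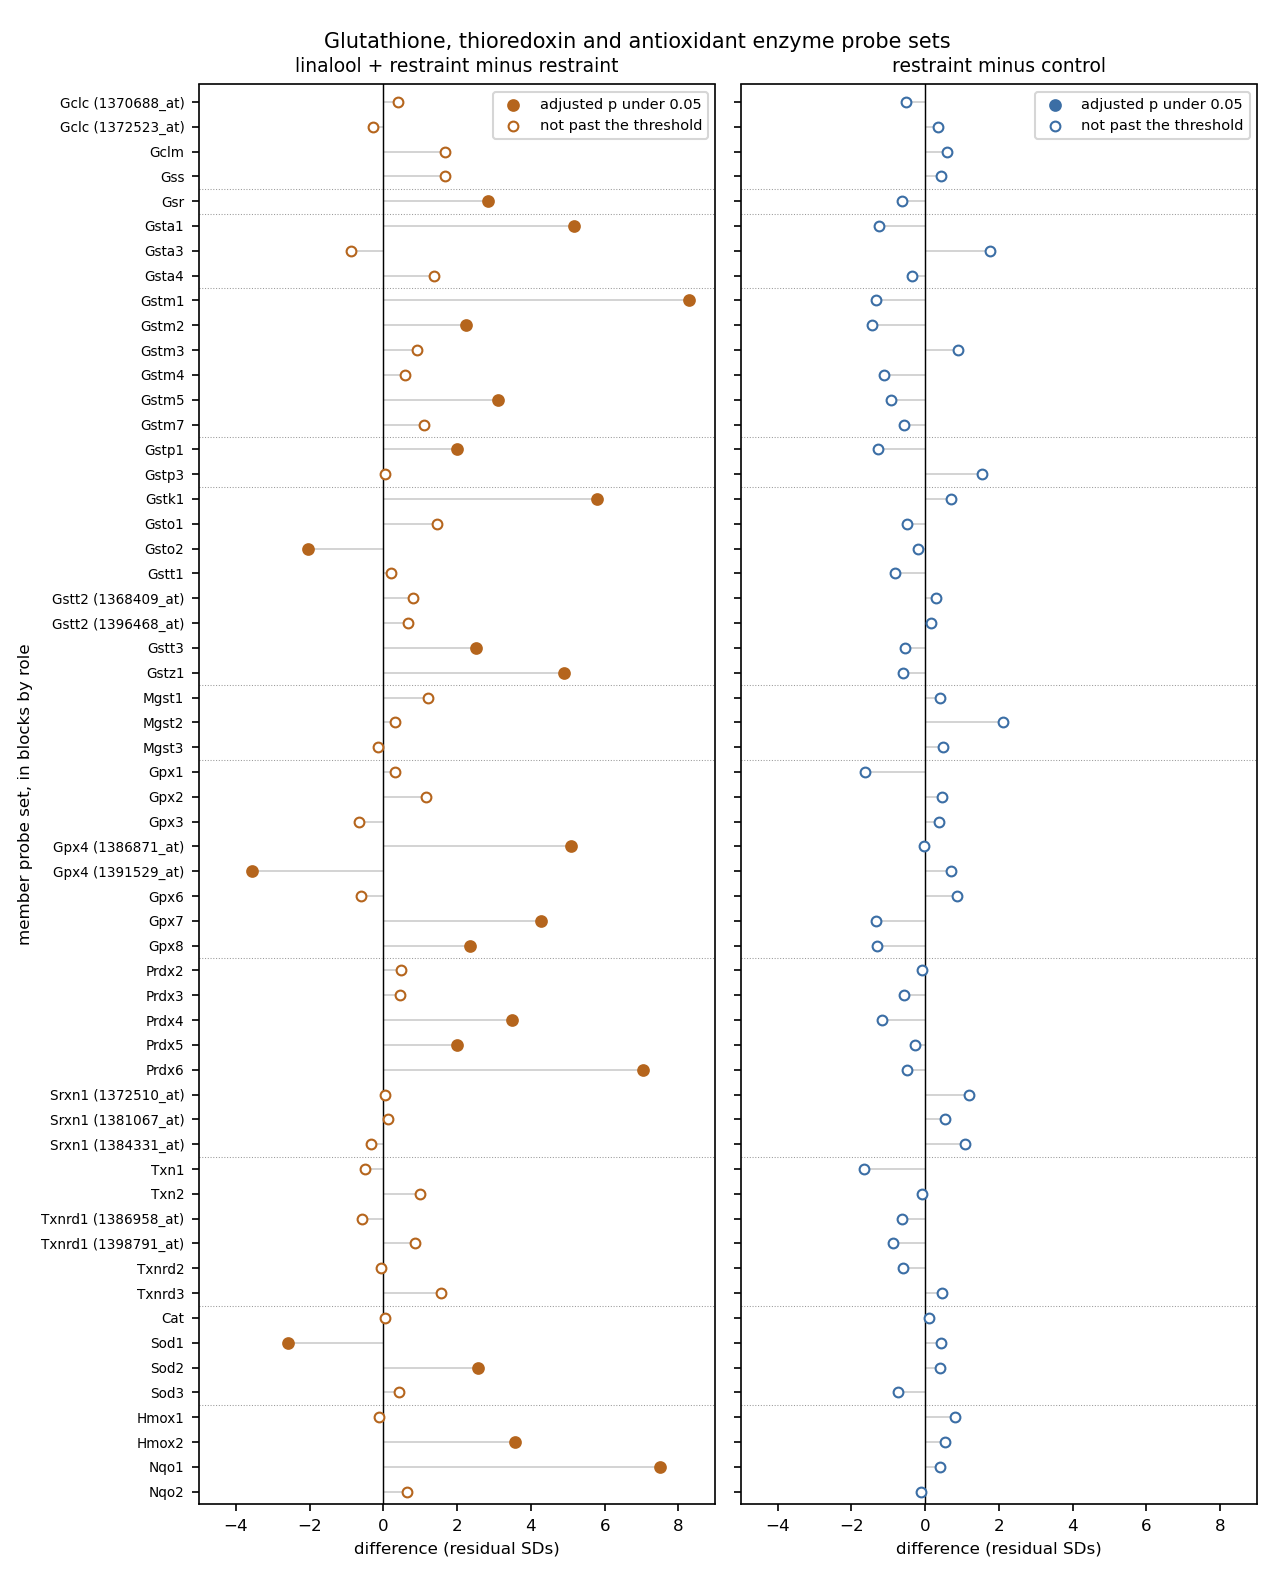
Difference of each of the 57 probe sets in residual SDs, linalool minus stress on the left and stress minus control on the right, in blocks by enzyme role; filled points passed an adjusted p of 0.05. On the left 18 filled points lie above 0 and 3 below, and on the right no point is filled.

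No glutathione synthesis gene passed the test as run over all probe sets, and Gclm and Gss lay near the threshold. Gclc, the catalytic subunit of the rate-limiting ligase, had signals of 9.31816, 9.31828 and 9.31842 (lowest, median and highest) in linalool rats and 9.31822, 9.31832 and 9.31841 in stress rats on its brighter probe set. The ranges nearly coincided (-0.29 residual SDs, adjusted p = 0.759), and the second probe set gave 0.40 (adjusted p = 0.652). Its modifier subunit Gclm had 8.48143, 8.48150 and 8.48172 in linalool rats and 8.48114, 8.48137 and 8.48148 in stress rats. Most linalool rats lay above the stress rats, with some overlap (1.66 residual SDs, adjusted p = 0.0572). Glutathione synthetase (Gss) also gave 1.66 (adjusted p = 0.0559). With dim probe sets left out both passed as higher (adjusted p = 0.0433 for Gclm and 0.0423 for Gss), as they did on the standardised and centred scale (0.0176 and 0.0177). Gss also passed with 1 probe set per gene (0.0497), with array weights (0.0473) and without linalool rat 4 or stress rat 6 (0.0261 and 0.0251), and Gclm without stress rat 1 (0.0466). After quantile normalization neither passed, with Gclm at 1.09 and Gss at 0.933 residual SDs (adjusted p = 0.186 and 0.258). By the unmoderated test on the standardised and centred scale neither passed (adjusted p = 0.075 for Gclm and 0.0697 for Gss). With a score of meningeal markers as a covariate neither passed (0.0578 and 0.109). Gsr, which regenerates reduced glutathione with NADPH, had 8.10633, 8.10648 and 8.10651 in linalool rats, against 8.10622, 8.10627 and 8.10638 in stress rats. The ranges overlapped narrowly, and the difference of 2.84 residual SDs passed (adjusted p = 0.00641); after quantile normalization it did not (adjusted p = 0.0955).

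The mu-class transferase Gstm1, a detoxifying enzyme found in brain in astrocytes, had the widest difference among members in residual SDs, though not on the log2 scale. Its lowest, median and highest signals were 11.49, 11.58 and 11.64 in linalool rats, against 11.08, 11.15 and 11.23 in stress rats. Every linalool rat was above every stress rat, with a difference of 0.42 (SE 0.0286, 8.28 residual SDs, adjusted p = 3.17e-05). Gstm5, a mu-class gene that is also found in brain, had 10.75, 10.82 and 10.97 in linalool rats, against 10.35, 10.53 and 10.68 in stress rats. Those groups did not overlap either, and Gstm5 was higher by 0.32 (SE 0.0576, adjusted p = 0.00331). Gstm2 was higher by 2.23 residual SDs (adjusted p = 0.0175) on a compressed probe set, a call lost after quantile normalization (1.12, adjusted p = 0.224), while Gstm3, Gstm4 and Gstm7, at 0.905, 0.587 and 1.11 residual SDs, did not pass (adjusted p = 0.278, 0.488 and 0.181). All 6 mu-class differences were positive.

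These 6 genes lie in a single stretch of the RefSeq assembly GRCr8, in the order Gstm5, Gstm7, Gstm3, Gstm2, Gstm1 and Gstm4, with 0 to 2 other protein-coding genes between neighbours. The genes that rose and those that did not were interleaved in it. Transferases of a class resemble each other in sequence, and how far their probe sets share targets was not tested.

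Gsta1, an alpha-class transferase that conjugates electrophiles and also reduces lipid peroxides, had 11.20, 11.44 and 11.51 in linalool rats, against 10.57, 10.78 and 10.92 in stress rats. The lowest linalool rat was above the highest stress rat, and the difference of 0.66 (SE 0.0722, 5.16 residual SDs, adjusted p = 0.000276) was the widest on the log2 scale among members. Its neighbour Gsta3 differed by -0.88 residual SDs near the bottom of the array's signal range, and Gsta4 by 0.18 (adjusted p = 0.291 and 0.104). Gstp1, the pi-class enzyme, was higher by 0.28 (SE 0.0803, adjusted p = 0.027) with overlapping groups, and it failed without linalool rat 1, 2 or 5 or stress rat 1 or 3 (adjusted p = 0.0535 to 0.0589). Gstp3 did not pass (adjusted p = 0.956).

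Among the other classes, Gstk1, a transferase of mitochondria and peroxisomes, had 9.37, 9.47 and 9.50 in linalool rats, against 9.10, 9.18 and 9.25 in stress rats. The groups did not overlap (difference 0.28, SE 0.0274, adjusted p = 0.000158). Gstz1, the maleylacetoacetate isomerase of tyrosine breakdown, had 8.92526, 8.92527 and 8.92530 in linalool rats, against 8.92495, 8.92503 and 8.92514 in stress rats. These groups were apart as well (4.89 residual SDs, adjusted p = 0.000458), but the probe set is compressed and gave 0.453 residual SDs after quantile normalization (adjusted p = 0.692). The theta-class gene Gstt3 was higher by 0.36 (SE 0.0822, adjusted p = 0.00967), whereas Gstt1 and both probe sets of Gstt2 differed by 0.20 to 0.80 residual SDs without passing. Gsto2, an omega-class enzyme that reduces dehydroascorbate, was lower by 2.06 residual SDs (adjusted p = 0.0236), and its neighbour Gsto1 differed by 1.46 (adjusted p = 0.0906). The Gsto2 fall was lost without stress rat 1 (adjusted p = 0.0509) and turned to 1.16 residual SDs, not past the threshold, after quantile normalization. None of the 3 microsomal transferases passed, with Mgst1 at 1.2, Mgst2 at 0.32 and Mgst3 at -0.15 residual SDs (adjusted p = 0.148, 0.719 and 0.876).

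**Figure D2:**
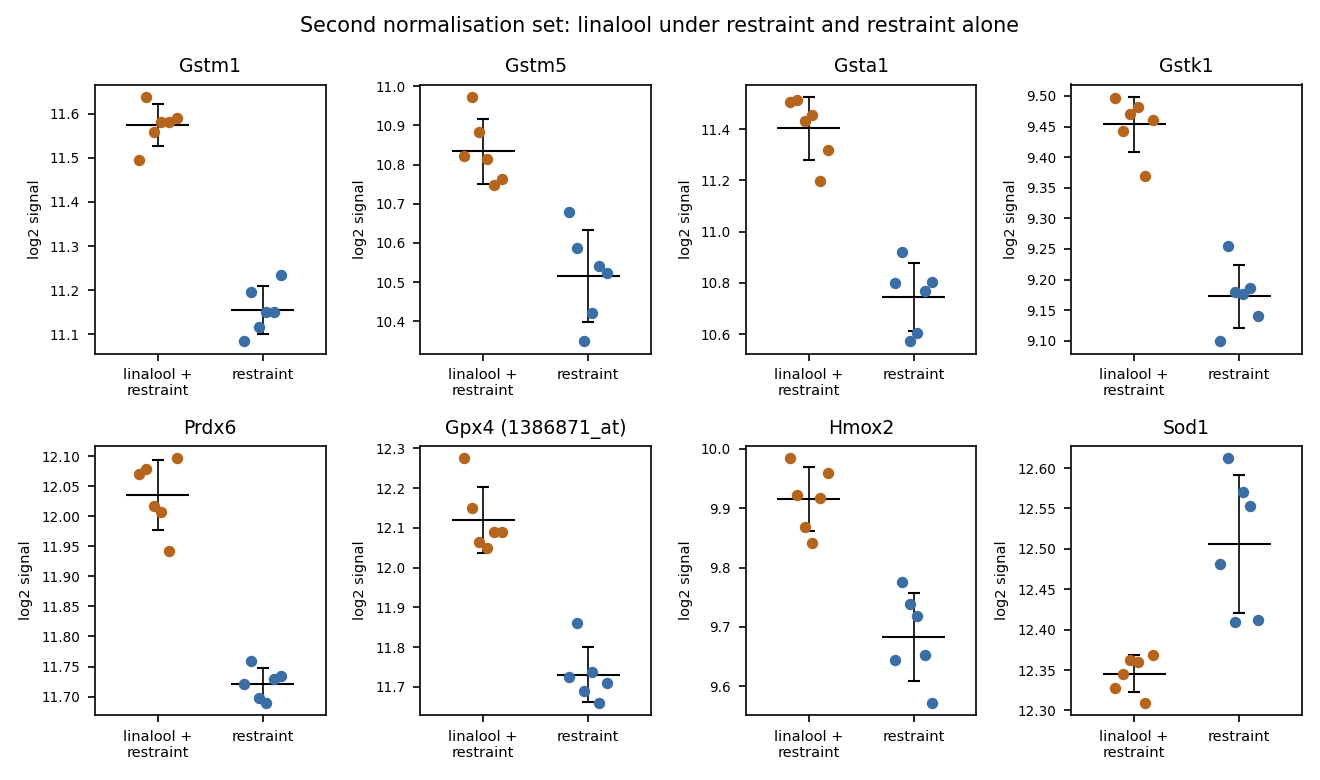
Log2 signal of 8 members in each rat of the linalool and stress set, with linalool rats on the left of each panel, stress rats on the right, black bars for the mean and whiskers for the SD (6 rats each). Axes do not start at 0. For 7 of the genes all linalool points lie above all stress points, and for Sod1 they lie below.

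Glutathione peroxidases split by gene, and Gpx4 split by probe set. Gpx4, the selenoenzyme that reduces lipid hydroperoxides in membranes, had 12.05, 12.09 and 12.28 in linalool rats on its brighter probe set, against 11.66, 11.72 and 11.86 in stress rats. No rats overlapped, and this probe set was higher by 0.39 (SE 0.0433, adjusted p = 0.000292). The second Gpx4 probe set, near the median level and compressed, had 8.22167, 8.22199 and 8.22209 in linalool rats and 8.22240, 8.22268 and 8.22299 in stress rats. It was lower by 3.57 residual SDs with no overlap (adjusted p = 0.00168), opposite to the first, and after quantile normalization its difference was 1.33 residual SDs (adjusted p = 0.116). The part of the transcript that each probe set reads was not analysed here.

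Gpx7, a peroxidase of the endoplasmic reticulum, had 8.18, 8.27 and 8.32 in linalool rats, against 7.71, 7.93 and 8.00 in stress rats, again without overlap (difference 0.37, SE 0.0487, adjusted p = 0.000662). Its relative in the same compartment, Gpx8, was higher by 0.15 (SE 0.0368, adjusted p = 0.0131), also with the groups apart. The cytosolic Gpx1 (0.305 residual SDs), the secreted Gpx3 (-0.65), Gpx2 (1.14) and Gpx6 (-0.61) did not pass, with adjusted p-values of 0.17 to 0.736.

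Of the peroxiredoxins, Prdx6, which reduces phospholipid hydroperoxides with glutathione as its partner and is an astrocyte protein in brain, had 11.94, 12.04 and 12.10 in linalool rats, against 11.69, 11.72 and 11.76 in stress rats. The groups were well apart, and Prdx6 was higher by 0.31 (SE 0.0253, 7.03 residual SDs, adjusted p = 6.92e-05). Prdx4, the peroxiredoxin of the endoplasmic reticulum, had 9.21, 9.25 and 9.58 in linalool rats, against 8.66, 8.87 and 8.99 in stress rats. It was higher by 0.45 (SE 0.0735, adjusted p = 0.00186), and its highest value belonged to linalool rat 1, with 9.28 in the next rat. Prdx5, found in mitochondria and peroxisomes, was higher by 1.99 residual SDs (adjusted p = 0.0281), a call that failed in 7 of the 12 fits that left out 1 rat. After quantile normalization Prdx5 turned to -0.134 residual SDs and did not pass (adjusted p = 0.961). Prdx2 and the mitochondrial Prdx3 did not pass, at 0.472 and 0.437 residual SDs (adjusted p = 0.592 and 0.619). After quantile normalization Prdx2 was called lower, at -2.55 residual SDs (adjusted p = 0.0152). Srxn1, which restores overoxidised peroxiredoxins and is an NRF2 target, had 9.07634, 9.07647 and 9.07682 in linalool rats and 9.07632, 9.07647 and 9.07669 in stress rats on the brightest of its 3 probe sets. The ranges coincided, and the probe sets gave 0.03, 0.13 and -0.32 residual SDs (adjusted p = 0.973, 0.893 and 0.717).

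No thioredoxin system probe set passed. Txn1, the cytosolic thioredoxin, had 11.66654, 11.66671 and 11.66689 in linalool rats and 11.66655, 11.66683 and 11.66696 in stress rats, with overlapping ranges (-0.51 residual SDs, adjusted p = 0.557). Its reductase Txnrd1, an NRF2 target, had 9.96723, 9.96734 and 9.96756 in linalool rats and 9.96704, 9.96723 and 9.96747 in stress rats on its brighter probe set. These overlapped (0.855 residual SDs, adjusted p = 0.306), and the dimmer probe set gave -0.57 (adjusted p = 0.503). The mitochondrial Txn2 and Txnrd2 gave 0.987 and -0.05, and Txnrd3 gave 1.57 (adjusted p = 0.234, 0.958 and 0.0672).

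The superoxide dismutases moved in opposite directions. Sod1, the copper and zinc enzyme of the cytosol, had 12.31, 12.35 and 12.37 in linalool rats, against 12.41, 12.52 and 12.61 in stress rats. Every linalool rat was below every stress rat, and Sod1 fell by 0.16 (SE 0.0353, adjusted p = 0.00839). Sod2, the manganese enzyme of mitochondria, had 10.36524, 10.36533 and 10.36550 in linalool rats, against 10.36498, 10.36512 and 10.36518 in stress rats. It rose by 2.55 residual SDs with no overlap (adjusted p = 0.00962); after quantile normalization the difference was 0.967 (adjusted p = 0.241). Catalase (Cat), which breaks down hydrogen peroxide in peroxisomes, had 10.66, 10.89 and 11.27 in linalool rats and 10.73, 10.94 and 11.09 in stress rats. The linalool rats spanned the stress rats on both sides (difference 0.01, SE 0.107, adjusted p = 0.954). Extracellular Sod3 did not pass (0.07, SE 0.0924, adjusted p = 0.619).

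Nqo1, a quinone reductase and a standard readout of NRF2 activity, had 9.2468, 9.2472 and 9.2487 in linalool rats, against 9.2338, 9.2366 and 9.2387 in stress rats. The ranges were far apart relative to their spread (7.49 residual SDs, adjusted p = 4.95e-05) but close on the deposited scale (difference 0.0111, SE 0.000836), and after quantile normalization Nqo1 differed by 1.5 residual SDs (adjusted p = 0.0887). Hmox1, the inducible haem oxygenase and another NRF2 target, had 8.71708, 8.71723 and 8.71733 in linalool rats and 8.71706, 8.71724 and 8.71744 in stress rats, which overlapped fully (-0.12 residual SDs, adjusted p = 0.899). The constitutive Hmox2 had 9.84, 9.92 and 9.98 in linalool rats, against 9.57, 9.68 and 9.78 in stress rats, and was higher by 0.23 without overlap (SE 0.0368, adjusted p = 0.00165). Nqo2 differed by 0.29 with an SE of 0.254 (adjusted p = 0.445).

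Promoter windows (RefSeq, GRCr8, from 250 bases before to 50 after the annotated start) were at hand for 43 of the 51 genes and were searched on both strands for TGACNNNGC, the core of the antioxidant response element. It occurred in 8 of the 15 windows of genes with a higher probe set (53.3%), in 4 of the 28 other members (14.3%) and in 12.1% of all 33469 windows. Gsr, Gpx8 and Prdx6, which also rose, had no window. The 33469 windows were not limited to genes on the array, and whether the core goes with a rise was not tested. The AP-1 core TGANTCA, which overlaps it where the spacer begins with TCA, occurred in 2 of the 15 (13.3%), in 3 of the 28 (10.7%) and in 7.33% of all. The core was found in Gstm5 at 113 and 53 bases before the start (TGACCACGC and TGACCCCGC), in Gstp1 at 61 (TGACTCAGC, overlapping an AP-1 core), in Hmox2 at 95 (TGACACTGC), in Sod2 at 35 (TGACCCTGC) and in Gstz1 at 231 (TGACGGGGC). Gsta1 and Prdx4 held it 31 and 20 bases after the start and Prdx5 1 base before it, and Gclm, Gpx2, Gsta3 and Gstm7, which did not pass, held it too. Of the genes with a core, the calls of Gstp1, Gstz1, Prdx5 and Sod2 were lost after quantile normalization. The windows of Gstm1 and Nqo1, the members with the smallest p-values in limma, held no core. A match is only a stretch of letters, and longer distances were not searched.

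The 250 bases before the start are shown for a mu-class and a pi-class gene that rose and for the ligase subunit that missed the threshold, each on the strand of its gene and with the core in capitals (in Gclm it reads on the opposite strand); Gstm5 lies at chr2:198219519-198219768 (plus strand), Gstp1 at chr1:210769706-210769955 (minus strand) and Gclm at chr2:213031885-213032134 (plus strand).
Gstm5: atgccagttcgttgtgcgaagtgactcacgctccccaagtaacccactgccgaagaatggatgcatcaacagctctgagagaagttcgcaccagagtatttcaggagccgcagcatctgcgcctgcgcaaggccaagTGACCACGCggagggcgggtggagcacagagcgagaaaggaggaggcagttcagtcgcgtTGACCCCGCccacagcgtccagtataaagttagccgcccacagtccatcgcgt
Gstp1: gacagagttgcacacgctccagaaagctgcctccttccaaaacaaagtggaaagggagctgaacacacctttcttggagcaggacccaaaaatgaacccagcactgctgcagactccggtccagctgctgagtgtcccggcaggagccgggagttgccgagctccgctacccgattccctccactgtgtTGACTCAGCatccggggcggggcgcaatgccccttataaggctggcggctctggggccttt
Gclm: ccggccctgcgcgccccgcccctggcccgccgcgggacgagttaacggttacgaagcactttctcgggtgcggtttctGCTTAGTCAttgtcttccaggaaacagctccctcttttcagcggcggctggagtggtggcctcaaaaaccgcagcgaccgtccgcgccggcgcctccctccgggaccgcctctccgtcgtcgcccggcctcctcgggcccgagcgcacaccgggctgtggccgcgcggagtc

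Genes that work beside the members were taken from 5 lists, with 1 probe set per gene. The lists were drawn up with earlier results of these data known. Their counts are set against 17.1% higher and 11.2% lower among all probe sets with 1 gene symbol, dimmer ones of the same gene included. When only the brightest probe set of each gene was tested, 4229 of 14217 passed, 2849 of them higher. Of 10 glutaredoxins and thioredoxin-fold or thioredoxin-binding proteins 9 rose with linalool and none fell (median 2.87 residual SDs). They included Txndc12 of the endoplasmic reticulum at 3.70 residual SDs, the thioredoxin-binding protein Txnip at a log2 difference of 0.20, the mitochondrial glutaredoxin Glrx5 at a log2 difference of 0.29 and the thioredoxin-like Txnl4a at 0.16 on the same log2 scale (adjusted p = 0.00166, 0.00228, 0.0028 and 0.00435), and Txnl1 did not pass (adjusted p = 0.1). Of 7 enzymes that supply NADPH 3 rose, the pentose phosphate enzymes Tkt and Taldo1 by 0.32 and 0.24 and the isocitrate dehydrogenase Idh1 by 0.18 on the log2 scale (adjusted p = 0.000367, 0.00328 and 0.00671). Among 17 other redox and metal-binding genes 6 rose, among them Selenof (0.27), Park7 (0.23), Selenop (0.12) and Mt3 (0.03; log2 differences), with adjusted p-values of 0.000467 to 0.0054. Sesn2, named after its values were seen as the single fall, was lower by 2.10 residual SDs (adjusted p = 0.0239).

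Of 8 NRF2 regulators 2 rose and 2 fell, and the median difference of the list was -1.43 residual SDs. Its mean score ran from -0.782 to 0.359 in linalool rats and from 0.0202 to 0.706 in stress rats. Nfe2l2 itself was higher by 2.96 residual SDs and its small Maf partner Maff by 2.31 (adjusted p = 0.00448 and 0.0144). Cul3, the ligase scaffold that with KEAP1 marks NRF2 for degradation, was lower by 4.27 residual SDs, and the autophagy receptor Sqstm1 fell by 0.30 on the log2 scale (adjusted p = 0.00128 and 0.0025). Of 14 genes of cystine uptake and glutathione turnover 3 rose and 1 fell. The rises were Chac2 at 2.58 residual SDs and Ggct at 2.11, both of which take part in glutathione breakdown, and the transporter subunit Slc3a2 at a log2 difference of 0.23, and the fall was Ggt7 at -2.47 residual SDs (adjusted p = 0.00857, 0.0224, 0.0109 and 0.0115). Among the members, every call on a compressed probe set was lost after quantile normalization. Values after quantile normalization are not given for the genes of these lists or for the cell type markers below.

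Each array's mean over the 57 members, in residual SDs about the mean of its 12 arrays, was 1.1, 0.766, 0.542, 0.485, 0.536 and 0.875 in linalool rats 1 to 6. In stress rats 1 to 6 it was -0.846, -0.136, -1.08, -0.635, -0.808 and -0.8. Linalool rat 1 was highest, stress rat 3 lowest, and stress rat 2 lay nearest to the linalool rats.

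Marker lists of cell types moved with this difference in places. Of 10 astrocyte markers Mlc1 and Ndrg2 rose (log2 differences of 0.54 and 0.14), Slc1a2 fell by 0.43 on the log2 scale and 7 did not pass, Gfap and Aqp4 among them. Their mean score ran from -0.432 to 0.873 in linalool rats and from -0.669 to 0.297 in stress rats. Of 9 neuron markers Syt1 and Rbfox3 fell by 0.34 and 0.27 on the log2 scale and none rose, with scores of -1.25 to 0.211 in linalool rats and 0.185 to 0.913 in stress rats. Of 3 measured blood markers Hbb and Alas2 rose (log2 differences of 0.35 and 0.36). The blood scores were -0.685 to 2.01 in linalool rats and -1.2 to -0.266 in stress rats. Of 9 endothelial markers Esam and Cldn5 rose (5.29 and 3.26 residual SDs) and none fell. Their score ran from -0.518 to 0.97 in linalool rats (median 0.812) and from -1.68 to 0.104 in stress rats (median -0.453), with all linalool rats but rat 5 above every stress rat. Meningeal markers gave no call among 13, and their score as a covariate left 17 members higher and 3 lower. The part of astrocytes, neurons, blood and endothelium in the result was not tested. In tissue blocks, more cells of a type and more RNA per cell cannot be told apart.

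**Figure D3:**
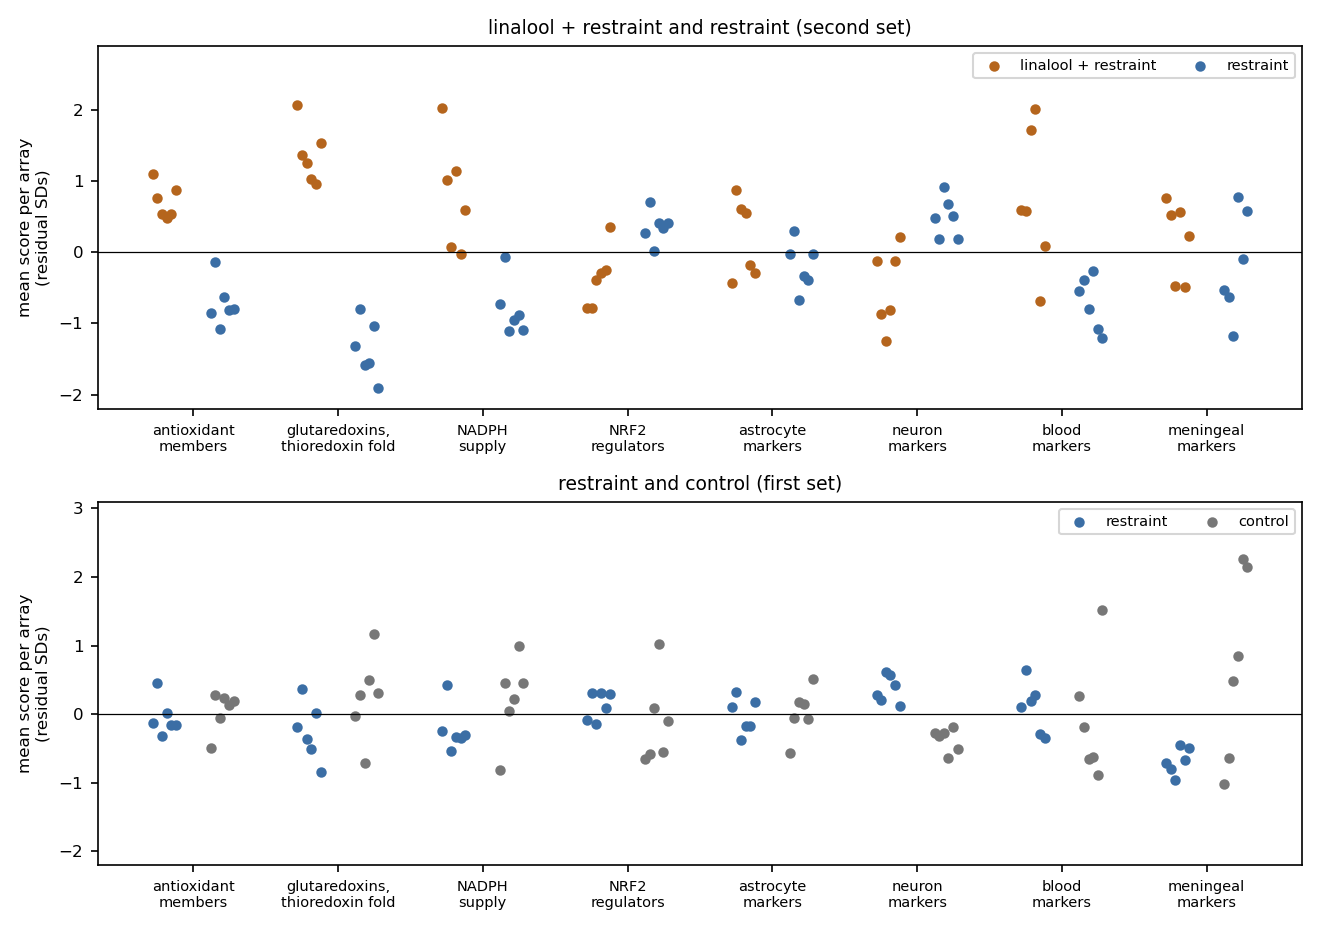
Mean score of each array (1 point per rat, centred on its set, in residual SDs) for the 57 members, pathway lists and cell type markers, linalool against stress rats above and stress against control rats below. Member scores of linalool rats lie between 0.485 and 1.1 and those of stress rats between -1.08 and -0.136, while stress and control rats overlap from -0.314 to 0.277.

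The other comparison asked what restraint alone did to these genes. None of the 57 probe sets passed in limma, where 0.554% of all probe sets did (0.341% higher, 0.213% lower) and 0.552% of those with 1 gene symbol. For none did the stress and control rats lie apart, against 1.78% of all probe sets (1.07% with stress rats above, 0.715% below). At an unadjusted p under 0.05 there were 3 higher and 7 lower (10 of 57), against 4982 of 31042 over the array. The count was also 0 by the unmoderated test, with array weights and after the omission of any 1 of the 12 rats. On the standardised and centred scale 3 members passed, Mgst2 higher and Txn1 and Gpx1 lower (adjusted p = 0.0155, 0.0376 and 0.0411), and by the unmoderated test on that scale none did. The median difference was -0.0915 residual SDs, against 0.12 over all probe sets. A missed threshold is no evidence of equal levels.

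The smallest p-value belonged to Mgst2, a microsomal transferase that also makes leukotriene C4, with 7.70315, 7.70337 and 7.70352 in stress rats and 7.70295, 7.70310 and 7.70325 in controls. Most stress rats were above the controls, on a compressed probe set (2.11 residual SDs, adjusted p = 0.139). Txn1 had 11.49, 11.65 and 11.72 in stress rats and 11.68, 11.74 and 11.82 in controls, and Gpx1 had 10.74, 10.85 and 10.99 in stress rats and 10.86, 11.07 and 11.26 in controls. Both overlapped, with differences of -0.11 and -0.20 (SE 0.0379 and 0.0705, adjusted p = 0.21 and 0.215). Gsta3 had 6.40084, 6.40096 and 6.40109 in stress rats and 6.40059, 6.40076 and 6.40091 in controls, and Gstp3 had 7.39317, 7.39323 and 7.39340 in stress rats and 7.39294, 7.39310 and 7.39321 in controls. Both are dim and compressed, and stress rats lay towards the top of an overlapping range (1.76 and 1.54 residual SDs, adjusted p = 0.195 and 0.238).

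The standard NRF2 targets overlapped between the groups on the brightest probe set of each. Nqo1 had 9.13601, 9.13631 and 9.13658 in stress rats and 9.13564, 9.13626 and 9.13660 in controls (0.41 residual SDs, adjusted p = 0.745). Hmox1 had 8.70772, 8.70785 and 8.70801 in stress rats and 8.70751, 8.70773 and 8.70794 in controls (0.807, adjusted p = 0.495). Stress rats lay inside the range of the controls for Nqo1 and slightly above it at the top for Hmox1. Gclm had 8.40438, 8.40470 and 8.40484 in stress rats and 8.40424, 8.40455 and 8.40484 in controls (0.594, adjusted p = 0.624). Gclc had 9.31014, 9.31025 and 9.31030 in stress rats and 9.31005, 9.31023 and 9.31031 in controls (0.341, adjusted p = 0.797). Neither ligase subunit showed a group apart.

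The remaining redox enzymes overlapped too. Srxn1 had 9.07850, 9.07864 and 9.07886 in stress rats and 9.07847, 9.07854 and 9.07862 in controls (1.19 residual SDs, adjusted p = 0.337). Txnrd1 had 9.96117, 9.96154 and 9.96193 in stress rats and 9.96140, 9.96178 and 9.96224 in controls (-0.857, adjusted p = 0.467), and Gsr had 8.08878, 8.08893 and 8.08919 in stress rats and 8.08879, 8.08901 and 8.08955 in controls (-0.634, adjusted p = 0.598). The difference was positive for Srxn1 and negative for both reductases, all short of the threshold. Catalase had 10.90773, 10.90795 and 10.90809 in stress rats and 10.90774, 10.90797 and 10.90800 in controls (0.111, adjusted p = 0.94). Sod1 had 12.35, 12.46 and 12.55 in stress rats and 12.28, 12.42 and 12.53 in controls (0.429, adjusted p = 0.733), and Sod2 had 10.27624, 10.27644 and 10.27651 in stress rats and 10.27624, 10.27634 and 10.27662 in controls (0.395, adjusted p = 0.757). For these 3 enzymes, which remove superoxide and hydrogen peroxide, neither group stood apart.

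Gstm2 showed how the control rats differ among themselves. Its signal was 7.13, 7.19, 7.02, 7.25, 7.11 and 7.27 in stress rats 1 to 6 and 7.04, 7.17, 7.75, 8.00, 8.59 and 8.64 in controls 1 to 6. All stress rats sat together, and controls 3 to 6 lay above them, which gave a difference of -0.70 (SE 0.276, adjusted p = 0.255). The score of 13 meningeal and fibroblast markers was -1.02, -0.636, 0.49, 0.849, 2.26 and 2.15 in the same controls and -0.967 to -0.443 in stress rats. With that score as a covariate Gstm2 differed by -0.474 residual SDs, and without controls 4, 5 and 6 by -0.7085 (adjusted p = 0.88 and 0.77), against -1.44 with all rats. Controls 4, 5 and 6 had the highest Gstm2 signals, so leaving them out lowers the control mean by construction. Neither fit tests a cause. Gpx8 was also highest in controls 5 and 6, at 9.39 and 9.27, against 8.83 to 9.05 in stress rats. The part of meningeal tissue in these differences was not tested.

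**Figure D4:**
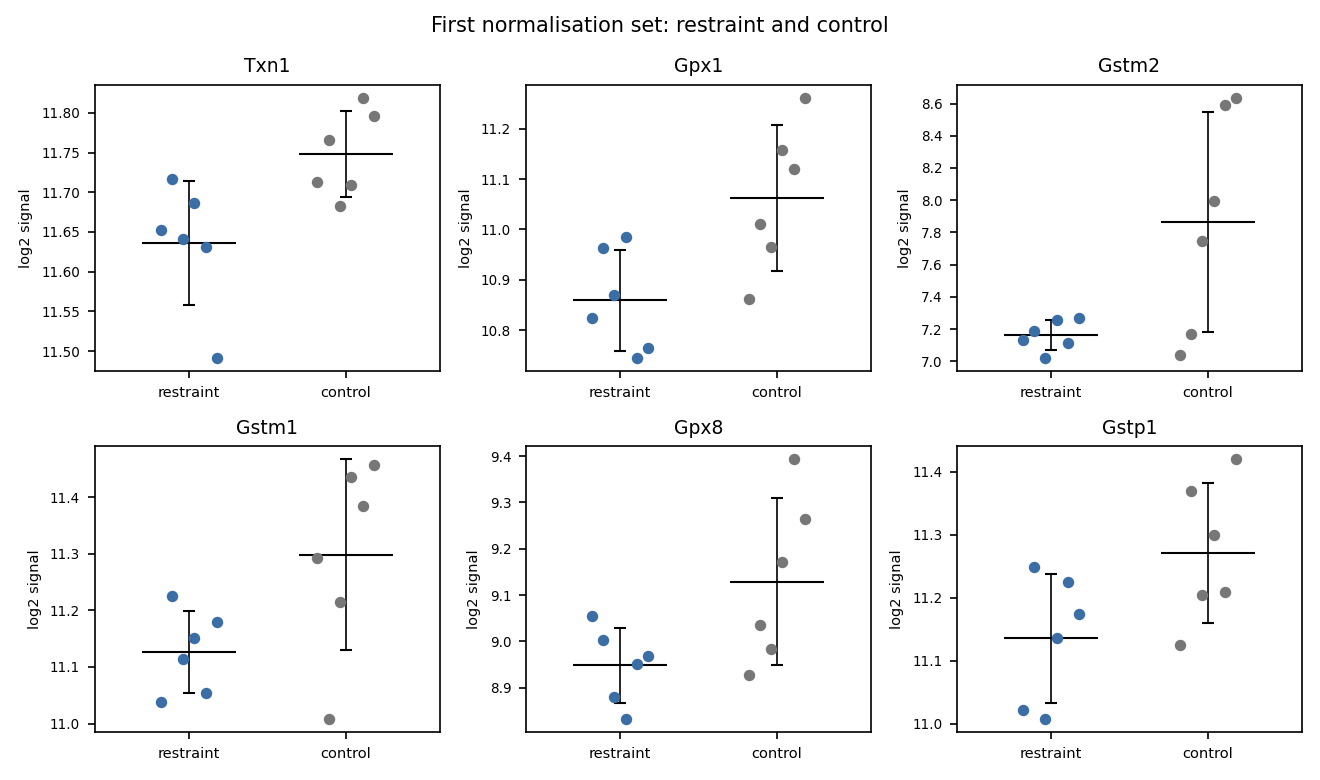
Log2 signal of the 6 members with the smallest p among those not compressed, in each rat of the stress and control set, with stress rats on the left, controls on the right, black bars for the mean and whiskers for the SD (6 rats each). Axes do not start at 0. In all 6 panels the groups overlap, and for Gstm2 the controls span 7.04 to 8.64.

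In the pathway lists, none of the 8 NRF2 regulators, 7 NADPH enzymes or 14 turnover genes passed after restraint. Nor did any of the 10 glutaredoxins and thioredoxin-fold or thioredoxin-binding proteins or the 17 other redox genes. The mean score of the 14 turnover genes nevertheless lay apart, at 0.014 to 0.292 in stress rats and -0.325 to -0.0521 in controls. So did that of 9 neuron markers, at 0.114 to 0.614 in stress rats and -0.646 to -0.184 in controls, and its part was not tested. The scores of the other lists overlapped between the groups. On the same scale, the median over all probe sets ran from -0.00889 to 0.108 in stress rats and from -0.173 to 0.0441 in controls. The metallothionein gene Mt2A, induced by glucocorticoids and metals, came nearest to the threshold at a log2 difference of 0.86 (SE 0.162, adjusted p = 0.0513). Txnip differed by -0.19 and Nfe2l2 by -0.14 on the log2 scale (adjusted p = 0.15 and 0.213). The 2 comparisons share the stress rats, so a high or low value in those rats enters both. Gstm1, for example, differed by -0.17 between stress and control (adjusted p = 0.291) and by 0.42 between linalool and stress, and Gstp1 by -0.14 (adjusted p = 0.305) and 0.28. Other members had other patterns, such as Gpx1 with -0.20 and 0.03 and the brighter Gpx4 probe set with -0.000807 and 0.39. No relation between the 2 comparisons was tested.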

How the data were processed

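Labelled RNA from 500 ng of total RNA of each of 18 hypothalamic blocks was hybridised to 3' expression arrays, per the labels' protocols. The log2 signals per probe set were deposited by the authors, who normalized 2 sets of 12 arrays separately, per the labels' design text; summarization and normalization methods: not given in the sources used here. That values are log2 was read from their range (5.59 to 14.93). The 57 array control probe sets, of 31099 in all, entered no gene test. Symbols came from the platform table (20826 probe sets with 1 symbol, 436 with several, 9780 with none listed).

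Both sets were fitted separately, two-sided, by lmFit and eBayes of limma 3.58.1 (R 4.3.3) without filter or renormalization. P-values were adjusted by Benjamini-Hochberg over 31042 probe sets, and limma's prior had 0.403 and 0.419 degrees of freedom. The procedure was tested on simulated data. Alternatives were quantile normalization, a standardised and centred scale, an unmoderated test, a trend, a level filter, 1 probe set per gene, a replicate block, array weights, a meningeal covariate and omission of rats. The labels describe separate animals. The members and lists were chosen with earlier results of these data known. Per-rat values are given for up to 14 called members with the smallest p (6 where fewer passed) and for 10 fixed genes (Nqo1, Hmox1, Gclc, Gclm, Txnrd1, Srxn1, Gsr, Cat, Sod1 and Sod2); other called members by their difference, and up to 4 called genes per pathway list.
The lists of choroid plexus, ependymal, oligodendrocyte, microglial and endothelial markers (6, 3, 7, 8 and 9 measured) had 0, 1, 0, 1 and 2 genes higher and 0, 0, 1, 0 and 0 lower with linalool, and only Kdr, lower, among 33 after restraint. The number of arrays limits the precision. Protein sequences were not used here.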

Additional observations from a re-analysis of the deposited data

Results flagged for a closer look

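Among 74 groups of 6 rats tested over the members with per-rat values, 3 held a rat whose gap to its neighbour exceeded Dixon's critical value of 0.625; chance gives about 1 in 20. Prdx4 in linalool rat 1 was 9.581, against 9.214 to 9.277 in the other linalool rats (ratio 0.83). Srxn1 in linalool rat 5 was 9.076824, against 9.076341 to 9.076484 (ratio 0.704), and Sod2 in control rat 2 was 10.27662, against 10.27624 to 10.27638 (ratio 0.644). The last pair are compressed probe sets.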

How the results depend on the processing

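Of the 21 calls with linalool, 18 held whichever of the 12 rats was left out (all but Prdx5, Gstp1 and Gsto2), and the counts ran from 20 to 23 in all, 17 to 20 higher and 2 to 3 lower. By the unmoderated test, with a trend, array weights, the level filter, 1 probe set per gene or the meningeal covariate, 19 to 22 members passed. Quantile normalization left 13 members past the threshold, 11 of them higher: 12 of the 21 calls held, 9 were lost (8 on compressed probe sets, and Gstp1), and Prdx2 was added as lower. The compressed Gpx4 probe set turned from -3.57 to 1.328 residual SDs. Over all probe sets it left 2608 calls with linalool (1528 higher), against 7763 (4403 higher), and 77 with restraint (54 higher), against 172 (106 higher). The cause was not tested. One probe set per gene, which tests fewer probe sets, gave 4229 (2849 higher) with linalool and 101 (69 higher) with restraint.

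The standardised and centred scale gave 3 member calls with restraint, 1 higher (Mgst2) and 2 lower (Gpx1 and Txn1), and 2013 over all probe sets (989 higher); it makes all spreads equal, so that limma's prior shrinks fully. An unmoderated form of it, added after seeing the data, gave no member call and 114 over all (65 higher), and held all 21 linalool calls. With the meningeal covariate 0 probe sets passed with restraint (0 higher), and without controls 4, 5 and 6 there was 1 (1 higher). Leaving out 1 rat moved the 172 to between 24 (without stress rat 1) and 205 (without control rat 2), with 14 to 134 higher; the count fell more than 1.5 times without stress rat 1, 3, 4 or 5 or control rat 1, 3, 5 or 6. No member passed with restraint in these 12 fits.

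The replicate numbers were not taken as pairing, since same-numbered rats correlated at 0.0755 to 0.223 (stress and control) and -0.105 to 0.182 (linalool and stress), and only 3 stress rats and 1 linalool rat correlated best with their own number. With the number as a replicate block, 16 probe sets passed with restraint (6 higher), and 17 members were higher and 2 lower with linalool; Prdx5, Gstm2 and Gsto2 were lost and Gclm was gained. Dim and compressed probe sets limit what can be seen.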
